A study of Mus musculus with 2 samples.

Results

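The genes described here are 28 genes of cholesterol synthesis and handling, taken from a named list, out of 28692 genes counted in single cells of the mouse habenula. All 28 were found in both count tables. By role, 3 belong to acetyl-CoA supply and ester formation (Acly, Acat2, Soat1), 6 to the mevalonate and isoprenoid steps (Hmgcs1, Mvk, Pmvk, Mvd, Idi1, Fdps) and 11 to the squalene and sterol steps (Fdft1, Sqle, Lss, Cyp51, Tm7sf2, Msmo1, Nsdhl, Hsd17b7, Ebp, Sc5d, Dhcr7). A further 4 sense sterol or act in transcription (Insig1, Srebf1, Srebf2, Scap) and 4 move or export sterol (Abca1, Abcg1, Apoe, Stard4). The mevalonate and sterol steps together are called the 17 synthesis enzymes below.

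The brain makes nearly all of its own cholesterol, because lipoproteins of the blood do not cross the blood-brain barrier. Oligodendrocytes use it for the myelin membrane, and astrocytes are known to lipidate apolipoprotein E (Apoe) through the exporter Abca1 and pass sterol to neurons. When sterol in the endoplasmic reticulum is low, Scap carries the transcription factor Srebf2 to the Golgi, where it is cleaved and goes on to raise the genes of the synthesis enzymes; Insig1 holds the Scap complex back and is itself a target of that factor.

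The libraries came from adult male C57BL/6 mice of 50 to 55 days. The series holds 2 libraries, control and foot shock, each from the pooled habenula punches of 4 mice, so no value below has a replicate and no test between groups was possible. Both are labelled as habenula, but the control library's title also carries a code that begins with LHb; whether the dissections differed cannot be told from the labels, and both libraries held MHb-like and LHb-like neurons. Mice of both groups were handled for 5 min a day over 7 days. Foot shock mice also spent 10 min a day for 7 days in the shock chamber and then received 30 shocks of 0.3 mA and 1 s within 60 min, while control mice came straight from the home cage. Tissue of both groups was taken into a solution with blockers of neuronal activity, transcription (actinomycin) and translation (anisomycin), right after the session for the shocked mice, and was digested with pronase and depleted of dead cells. The chamber, the shocks and the library therefore cannot be told apart in any difference between the groups.

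The tables held 23095501 UMIs (unique molecular identifiers, each one counted transcript) in control and 22189951 in foot shock, and 4880 and 4771 cells were kept, with a median of 2416.5 and 2698 UMIs. Cells were clustered without the member genes and named from markers, each name carrying "-like". Of the classes, 9 held 50 cells or more in both libraries; control before foot shock, they were MHb-like neurons (medial habenula, 1208 and 1619 cells), LHb-like neurons (lateral habenula, 1179 and 1034), thalamus-like neurons (130 and 58), oligodendrocyte precursor-like cells (244 and 101), committed precursor-like cells, which lie between precursor and myelinating cell (92 and 67), oligodendrocyte-like cells (1079 and 827), astrocyte-like cells (593 and 153), microglia-like cells (115 and 70) and mural-like cells (54 and 61). The libraries differed in their cells: 503 keratin epithelium-like and 45 fibroblast-like cells occurred in foot shock and 0 in control, and 249 cells in control against 69 in foot shock were called doublets. Kept cells of the libraries shared 32 barcodes. The 8 pan-neuron markers, a measure of neuronal RNA in glia, summed to 736 in astrocyte-like cells of control and 1861 in foot shock (CPM, UMIs of a gene scaled to a class total of 1000000), and to 482 and 1923 in committed precursor-like, 2418 and 5563 in oligodendrocyte precursor-like and 413 and 575 in oligodendrocyte-like cells, with 0 of the 8 at 0; their part in the results was not tested.

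Promoters of 4 members are printed to show the sequence these genes start from: Hmgcs1 and Insig1, the members most often among the highest of a class, Mvk, with the largest number of CCAAT boxes, and Apoe, with none. Sequences are from RefSeq on GRCm38.p6, 5′ to 3′ on the gene's strand, and end before the annotated start: Hmgcs1 at chr13:119690101-119690350 (plus strand), Insig1 at chr5:28071162-28071362 (plus), Mvk at chr5:114444019-114444268 (plus) and Apoe at chr7:19699189-19699438 (minus). Capitals mark matches to the sterol regulatory element letters TCACNCCAC and to CCAAT, the box bound by NF-Y, which reads ATTGG where it lies on the other strand.
Hmgcs1: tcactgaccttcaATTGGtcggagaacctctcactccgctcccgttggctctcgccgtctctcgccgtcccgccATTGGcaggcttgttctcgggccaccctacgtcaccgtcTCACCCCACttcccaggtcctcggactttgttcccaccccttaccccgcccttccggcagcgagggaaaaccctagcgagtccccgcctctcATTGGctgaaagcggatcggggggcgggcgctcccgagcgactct
Insig1: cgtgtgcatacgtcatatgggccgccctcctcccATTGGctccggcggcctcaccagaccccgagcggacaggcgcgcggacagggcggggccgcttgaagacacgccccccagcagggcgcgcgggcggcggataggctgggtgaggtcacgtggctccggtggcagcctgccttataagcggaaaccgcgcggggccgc
Mvk: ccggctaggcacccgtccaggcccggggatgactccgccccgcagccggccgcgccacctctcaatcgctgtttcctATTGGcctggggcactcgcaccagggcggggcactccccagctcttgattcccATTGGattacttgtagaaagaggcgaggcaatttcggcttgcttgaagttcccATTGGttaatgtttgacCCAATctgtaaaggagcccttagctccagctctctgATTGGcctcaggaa
Apoe: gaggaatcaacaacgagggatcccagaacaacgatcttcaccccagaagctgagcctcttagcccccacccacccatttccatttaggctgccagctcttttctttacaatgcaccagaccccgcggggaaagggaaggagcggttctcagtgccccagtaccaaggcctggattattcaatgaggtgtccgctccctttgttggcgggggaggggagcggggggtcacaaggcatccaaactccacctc
Over windows of 250 bases before to 50 after the start, searched on both strands, a RefSeq promoter was matched for 23 of 28 members; Fdps, Fdft1, Sqle, Abcg1 and Stard4 were not matched. TCACNCCAC was found in 1 of the 23 (4.35%), Hmgcs1, against 1.44% of 27025 genes. The looser TCACNCNAC, of which TCACNCCAC is a special case, was in Hmgcs1 and Nsdhl (8.70%) against 3.15% of genes. CCAAT was found in 19 of the 23 (82.6%) against 41.1% of genes, and only Acat2, Scap, Abca1 and Apoe had none in the window. Up to 5 boxes stood in 1 promoter, in Mvk, followed by 4 in Hmgcs1 and Nsdhl and 3 in Msmo1 and Hsd17b7. A match is a description of the letters, and its absence says nothing about binding.

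The first question was where in the habenula these genes are used. Levels are CPM of the class total with exact Poisson 95% intervals that cover counting error only; UMIs count transcript ends, so a level does not grow with transcript length. In committed precursor-like cells the 17 enzymes summed to 1552 CPM (1412 to 1702) in control and 1428 (1263 to 1608) in foot shock, and in thalamus-like neurons to 1541 (1454 to 1631) and 1490 (1347 to 1645). These were the highest of the 9 classes in both libraries, and their intervals overlap; every ranking of classes below is over these 9. Astrocyte-like cells followed at 1086 (1013 to 1163) and 954 (827 to 1096). Within them cluster 20 (led by Aqp4 and Gfap, 67 and 25 cells) stood at 1479 (1254 to 1733) and 1628 (1245 to 2091), with intervals that overlap those of the highest classes, and cluster 6 (led by Slc6a11, 526 and 128 cells) at 1023 (947 to 1104) and 808 (680 to 954). LHb-like neurons at 817 and 843 and oligodendrocyte-like cells at 796 and 808 were close to each other, above oligodendrocyte precursor-like cells at 538 and 620 and MHb-like neurons at 422 and 395. Microglia-like cells, at 243 and 254, stood lowest in control, and mural-like cells, at 395 and 195, lowest in foot shock. Free RNA, read from barcodes with 10 to 100 UMIs, held 460 and 403 CPM, so the sums of MHb-like, microglia-like and mural-like cells were at or below the free RNA level.

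**Figure D1:**
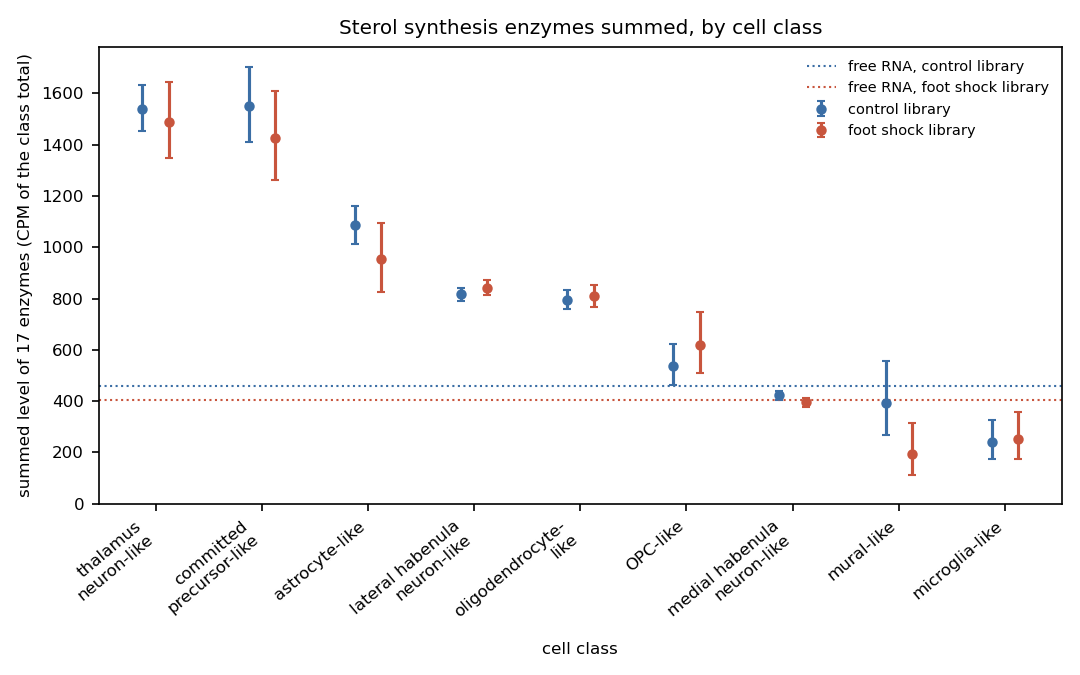
Summed level of the 17 synthesis enzymes in each class (CPM of the class total, with exact Poisson 95% intervals), control beside foot shock, 1 library each. Committed precursor-like cells and thalamus-like neurons stand highest, at 1552 and 1541 in control, and MHb-like neurons at 422.

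The nuclear transcript Malat1 took 28.7% and 28.2% of UMIs in astrocyte-like cells but 3.97% and 4.68% in LHb-like neurons, which lowers every other gene's CPM in astrocyte-like cells. With Malat1 left out of the totals, the enzymes summed to 1803 and 1681 CPM in committed precursor-like cells, 1594 and 1550 in thalamus-like neurons and 1523 and 1329 in astrocyte-like cells, with 1615 and 1809 in their cluster 20 and 1504 and 1191 in cluster 6. Oligodendrocyte-like cells then held 951 and 991, and LHb-like neurons 851 and 884. In such class sums, more RNA per cell and more cells with the RNA cannot be told apart.

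A pair of enzymes made up much of these sums. Hmgcs1, which makes HMG-CoA from acetoacetyl-CoA, and Msmo1, a sterol demethylation oxidase, together gave 40.4% and 44.6% of the enzyme UMIs of committed precursor-like cells, 45.9% and 49.3% of those of astrocyte-like cells and 31.9% and 31.4% of those of MHb-like neurons. Without them the other 15 enzymes summed to 926 and 790 CPM in committed precursor-like cells and 890 and 955 in thalamus-like neurons. Astrocyte-like cells then held 588 and 484, beside 470 and 463 in oligodendrocyte-like and 468 and 497 in LHb-like cells.

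Each member was then placed by its highest class, over the mean of both libraries. Thalamus-like neurons were highest for 9 of the 17 enzymes, committed precursor-like cells for 5 (Mvk, Mvd, Idi1, Lss, Dhcr7), astrocyte-like cells for 2 (Msmo1, Nsdhl) and microglia-like cells for Ebp. In both libraries alike, thalamus-like neurons were highest for 5 enzymes, committed precursor-like cells for 5 and astrocyte-like cells for 1. Ebp was highest in oligodendrocyte-like cells in control, and 0 of the 17 enzymes reached 20 UMIs over both libraries in microglia-like cells. Of 10446 genes, by the mean of both libraries, thalamus-like neurons were highest for 17.5% and committed precursor-like cells for 12.1%. Astrocyte-like cells were highest for 9.38% and microglia-like cells for 8.32%. For 20 of the 28 members the highest class was the same in both libraries, and the median Spearman correlation of a member's levels between libraries, over the 9 classes, was 0.86. Shares highest in both libraries alike, and the correlation between libraries, are not given for all genes.

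**Figure D2:**
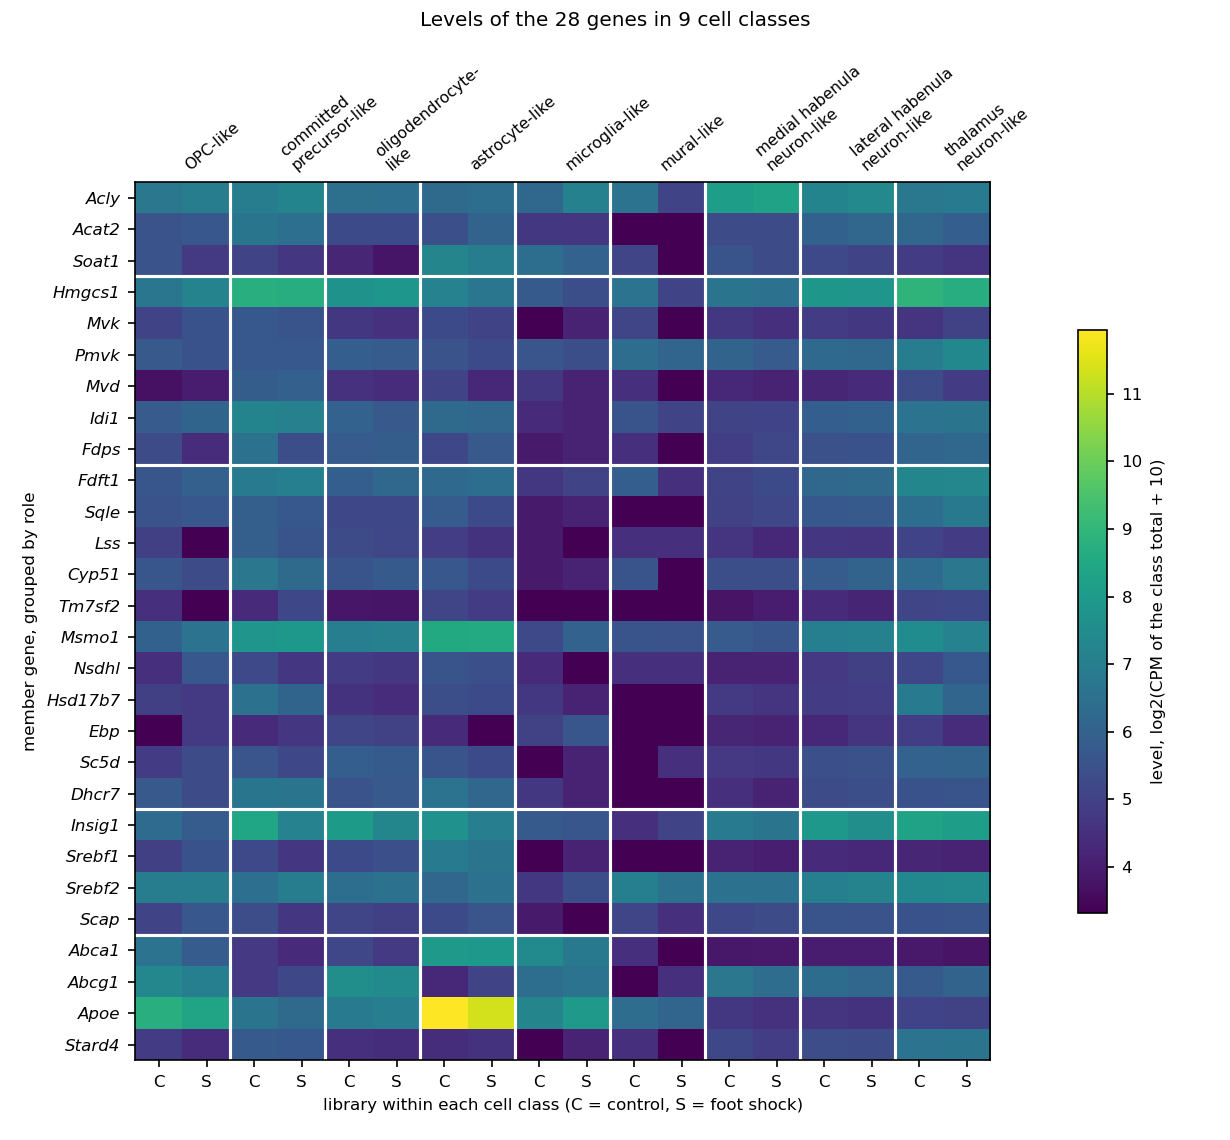
Level of each of the 28 members (rows, ordered by role) in each class and library (columns), as log2(CPM + 10); C is control and S foot shock, 1 library each. Hmgcs1, Msmo1 and Insig1 are strong in several classes, whereas Apoe at 3937 CPM in control astrocyte-like cells exceeds every other value.

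Among the genes of acetyl-CoA supply and ester formation, Acly, which makes cytosolic acetyl-CoA from citrate, was highest in MHb-like neurons at 268 CPM in control and 302 in foot shock and lay between 66.2 and 156 in LHb-like, glial and thalamus-like classes other than mural-like cells. Soat1, which esterifies cholesterol for storage, was highest in astrocyte-like cells at 142 and 114, followed by microglia-like cells at 77.2 and 55.5, and stood at 8.87 and 4.16 in oligodendrocyte-like cells. Acat2, the cytosolic acetoacetyl-CoA thiolase, was highest in committed precursor-like cells at 92.9 and 79.0. A near-identical neighbour, Acat3, could share reads with Acat2, so its values are uncertain.

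In the mevalonate and isoprenoid steps, Hmgcs1 (chromosome 13, 119690379 to 119708260) reached 477 and 404 CPM in thalamus-like neurons and 413 and 406 in committed precursor-like cells, against 226 and 217 in LHb-like neurons, 207 and 221 in oligodendrocyte-like, 132 and 94.9 in astrocyte-like and 89.6 and 84.2 in MHb-like cells. Idi1, the isopentenyl diphosphate isomerase, followed in committed precursor-like cells at 138 and 126. Pmvk, the phosphomevalonate kinase, differed from the rest by its high level in thalamus-like neurons, 113 and 155, beside 41.3 and 42.1 in committed precursor-like cells. Mvk (0 to 41.3 over the 18 class and library values), Mvd (0 to 52.7) and Fdps (0 to 82.6), which act on mevalonate and its phosphates and make farnesyl diphosphate, were highest in committed precursor-like cells in 1 library or both. Fdps overlaps another gene model on its strand, and Mvd one on the other strand.

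In the squalene and sterol steps, Msmo1 (chromosome 8, 64718139 to 64733792) was highest in astrocyte-like cells, at 367 and 375 CPM, above 213 and 232 in committed precursor-like cells, 119 and 124 in oligodendrocyte-like cells and 45.1 and 40.0 in MHb-like neurons. With each cell thinned to 1000 UMIs, 30.1% and 30.0% of astrocyte-like cells held a Msmo1 UMI (35.4% and 37.3% unthinned) against 4.51% and 3.94% of MHb-like neurons (16.2% and 12.6%). Fdft1 (squalene synthase) and Sqle (squalene epoxidase) were highest in thalamus-like neurons, at 145 and 151 and at 76.8 and 102 CPM. Cyp51 (lanosterol demethylase) stood at 70.3 and 98.1 CPM there and was highest there in foot shock only. In control it was highest in committed precursor-like cells, and its means over both libraries were close, 84.2 in thalamus-like and 82.4 in committed precursor-like cells. Hsd17b7, a sterol ketone reductase, stood at 107 and 60.4 in thalamus-like neurons and 86.0 and 57.9 in committed precursor-like cells but at 13.9 and 11.3 in oligodendrocyte-like cells. Dhcr7, which takes the last step to cholesterol in one branch, was highest in committed precursor-like cells at 92.9 and 89.6, followed by astrocyte-like cells at 86.4 and 61.7. The remaining enzymes were low: the highest of 18 values was 51.6 for Lss, 26.4 for Tm7sf2, 41.5 for Nsdhl, 39.7 for Ebp and 56.6 for Sc5d. Tm7sf2 overlaps a gene on its own strand, and Cyp51, Fdft1 and Lss overlap genes on the other strand; whether counting used strand is not stated.

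Among the sensing and transcription genes, Insig1 (chromosome 5, 28071363 to 28078662) reached 330 CPM in control committed precursor-like cells, 301 and 268 in thalamus-like neurons, 249 and 146 in oligodendrocyte-like cells and 231 and 183 in LHb-like neurons. Insig1 and Hmgcs1 were each among the 3 highest members in 5 of the 9 classes. Srebf2 lay between 61.1 and 166 CPM outside microglia-like cells, where it stood at 16.5 and 31.7. Srebf1, the sister factor of fatty acid genes, was highest in astrocyte-like cells at 112 and 90.2 and at most 34.8 in every other class and library of the 9. Scap lay between 0 and 40.6. Srebf1 overlaps a gene on the other strand.

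Of the transport genes, Apoe (chromosome 7, 19696109 to 19699188) was highest in astrocyte-like cells at 3937 CPM in control and 2625 in foot shock, then in oligodendrocyte precursor-like cells at 426 and 319, microglia-like cells at 143 and 238 and oligodendrocyte-like cells at 108 and 120. Outside the 9 classes it was higher still in macrophage-like cells (12 and 18 cells), at 6612 (5491 to 7895) and 10505 (9340 to 11775), and stood at 1031 and 959 in ependymal-like cells (15 and 38 cells). MHb-like neurons at 16.6 and 13.2 and LHb-like neurons at 14.8 and 14.2 were far below the free RNA level of 265 and 223. Apoe of oligodendrocyte-like and committed precursor-like cells also lay below that level. Thinned to 1000 UMIs, 93.4% and 79.8% of astrocyte-like cells held an Apoe UMI (95.4% and 85.0% unthinned), against 1.72% and 1.40% of MHb-like neurons (6.37% and 4.20%), at median depths of 1185 and 1186 against 4224.5 and 3463 UMIs. Abca1 shared the astrocyte-like peak, at 239 and 233, with 160 and 103 in microglia-like cells and at most 6.31 in LHb-like, MHb-like and thalamus-like neurons. Abcg1, a sterol exporter of the same family, had the opposite glial pattern: 183 and 165 in oligodendrocyte-like cells and 149 and 122 in oligodendrocyte precursor-like cells, but 9.30 and 23.7 in astrocyte-like cells. Stard4, a soluble sterol carrier, was highest in thalamus-like neurons at 87.3 and 90.5.

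Along the oligodendrocyte lineage, the enzymes were highest in the middle stage. Committed precursor-like cells stood above oligodendrocyte precursor-like cells in both libraries for 12 of the 17 enzymes and below for 0, with no minimum count; of 12061 genes with a UMI in both libraries 21.9% stood above and 47.2% below. Oligodendrocyte-like cells stood below committed precursor-like cells for 12 of the 17, beside 43.3% of 12928 genes, and above for 3 (Pmvk, Ebp, Sc5d), beside 25.1%. Soat1 and 3 of the 4 transport genes (Abca1, Abcg1, Apoe) were the members lower in committed precursor-like than in oligodendrocyte precursor-like cells in both libraries. Stard4, the other transport gene, stood at 18.2 and 11.6 CPM in precursor-like, 44.7 and 42.1 in committed precursor-like and 13.1 and 11.9 in oligodendrocyte-like cells.

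For single members, a change is called where the level differed at least 1.5-fold in the same direction in both libraries and the gene had at least 20 UMIs over the sums compared in each library. A call does not require an interval that excludes 1. For committed precursor-like against oligodendrocyte precursor-like cells 11 of the 28 members passed that minimum. The call was higher for 7 of them, where 15.4% of 3459 genes were called higher: Hmgcs1, Insig1, Msmo1, Idi1, Fdft1, Acat2 and Dhcr7. Hmgcs1 went from 94.3 to 413 CPM in control, a ratio of 4.38 (2.93 to 6.73), and from 133 to 406 in foot shock, 3.04 (1.89 to 5.08). Insig1 went from 69.9 to 330 and from 46.4 to 132, ratios of 4.72 (2.97 to 7.80) and 2.84 (1.24 to 7.29). The ratios of the other 5 lay between 1.95 and 3.90; that of Acat2 in foot shock, 1.95 (0.75 to 5.65), had an interval that holds 1. Abcg1, at 149 and 122 CPM in precursor-like cells, stood at 17.2 and 26.3 in committed precursor-like cells, ratios of 0.12 and 0.22. Apoe stood at ratios of 0.21 in both libraries, and these 2 were the members called lower, beside 19.5% of genes. The median log2 ratio was 1.32 and 1.08 over the 11 members and −0.13 and −0.14 over all genes. TMM scaling sets a trimmed, weighted mean of the gene ratios level between classes, which need not set the median gene level. Under TMM scaling the same 9 calls were made, beside 21.1% of genes higher and 13.4% lower. The median log2 ratio over all genes was then 0.16 and 0.14.

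The step from committed precursor-like to oligodendrocyte-like cells depends on how it is scaled. Against class totals, 12 of 26 members over the minimum were called lower, beside 23.1% of 7246 genes, and Abcg1 higher, beside 11.1%. Hsd17b7 had the lowest ratios, 0.16 (0.09 to 0.28) and 0.20 (0.09 to 0.45), followed by Mvd at 0.28 and 0.21, Stard4 at 0.29 and 0.28 and Acat2 at 0.30 and 0.35. Hmgcs1, at 207 and 221 CPM, had ratios of 0.50 and 0.55. Idi1, Mvk, Cyp51, Dhcr7, Fdft1, Sqle and Msmo1 made up the 12, with ratios of 0.34 to 0.64. Abcg1 was 10.6-fold higher in control (4.51 to 32.8) and 6.28-fold in foot shock (2.66 to 19.5). The median log2 ratio over all genes was −0.28 and −0.42, and over the 26 members −0.84 and −0.65. Under TMM scaling, a shift of −0.46 and −0.62 log2 units, 6 members were lower (Acat2, Hsd17b7, Idi1, Mvd, Mvk, Stard4; 10.5% of genes) and 6 higher (Abca1, Abcg1, Apoe, Ebp, Pmvk, Sc5d; 23%). All 6 that remained lower were among the 12, whereas Hmgcs1 and Msmo1 were not called under that scaling.

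**Figure D3:**
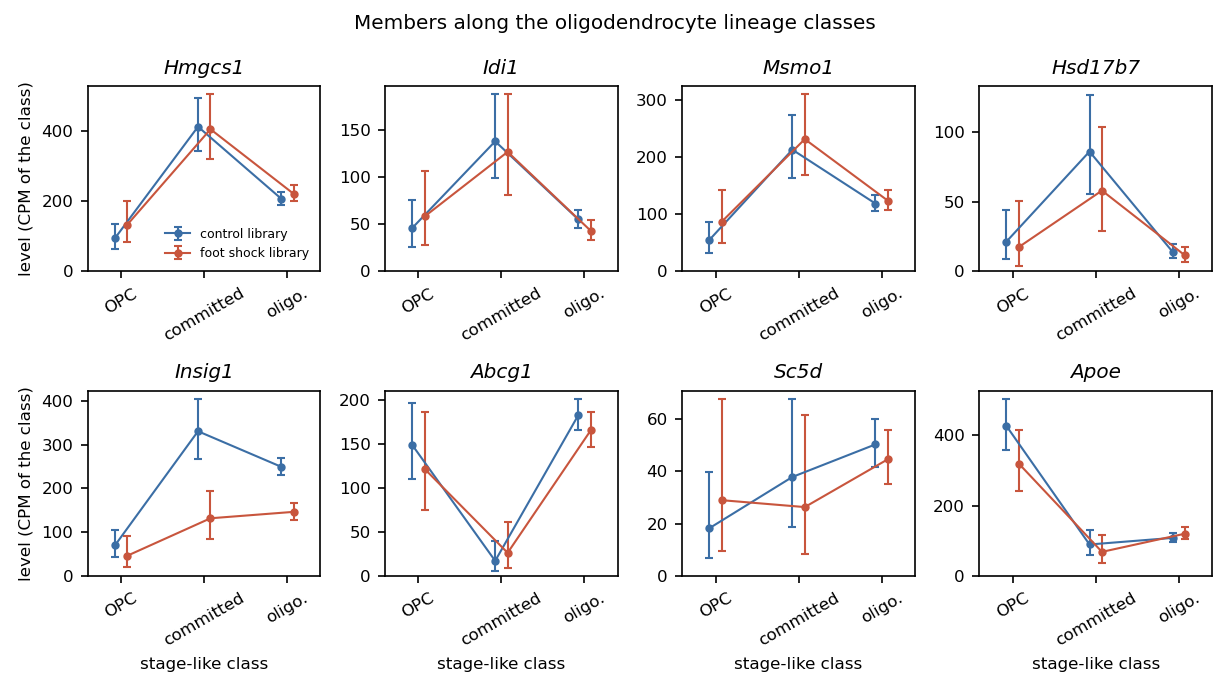
Levels (CPM of the class, from 0, with exact Poisson 95% intervals) of 8 members across oligodendrocyte precursor-like (OPC), committed precursor-like and oligodendrocyte-like cells, control and foot shock joined separately, 1 library each. Hmgcs1 and Insig1 peak in the middle stage in control at 413 and 330, while Abcg1 and Apoe dip there. In foot shock Hmgcs1 also peaks there, at 406, but Insig1 stands at 132 there and at 146 in oligodendrocyte-like cells.

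Mature cells compared with precursors gave a split that also turned on scaling. Against class totals 4 of 26 members over the minimum were higher in oligodendrocyte-like than in oligodendrocyte precursor-like cells (Hmgcs1, Mvd, Sc5d, Insig1; 12.4% of genes) and 4 lower (Mvk, Hsd17b7, Abca1, Apoe; 33.2%). Insig1 had ratios of 3.56 (2.35 to 5.67) and 3.16 (1.58 to 7.39), and Hmgcs1 of 2.20 (1.53 to 3.28) and 1.66 (1.09 to 2.65). Intervals of Mvd, Mvk and Hsd17b7 hold 1 in both libraries, and that of Sc5d holds 1 in foot shock. Mvd had a mean of only 4.42 CPM in precursor-like cells. The median log2 ratio over all genes was −0.47 and −0.59 against 0.19 and −0.03 over the members. Under TMM scaling 13 members were higher and 0 lower, beside 30.1% and 12.8% of genes, and the 13 included all 4 of the first count.

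The 3 clusters of oligodendrocyte-like cells differed in single members more than in the sum. The enzymes summed to 732 and 678 CPM in cluster 0 (led by Ptgds, Mal and Opalin), 914 and 1051 in cluster 7 (Anln, Apod, Hapln2) and 666 and 825 in cluster 12 (Ttyh2, Ppp1r16b, Bmp2k). Insig1 stood at 878 (772 to 994) and 719 (558 to 911) in cluster 12 against 182 and 116 in cluster 0 and 142 and 105 in cluster 7. Median UMIs per cell were 1721 and 1310 in cluster 12, 1989 and 1747 in cluster 0 and 2290 and 2221 in cluster 7. The part of depth in the Insig1 level was not tested. Against cluster 0, cluster 12 had Insig1 ratios of 4.84 and 6.21 and Abcg1 ratios of 1.88 and 2.26, and these were the 2 of 20 members over the minimum called higher (3.33% of genes), with Cyp51 and Srebf2 lower (5.4%). Cluster 7 against cluster 0 had 4 of 23 members higher (Sqle, Nsdhl, Dhcr7, Abcg1; 4.53% of genes) and Apoe lower, at ratios of 0.31 and 0.34 (3.55%). Cluster 12 against cluster 7 had Insig1 higher (3.06% of genes), at ratios of 6.19 and 6.81, and 4 of 18 members lower (Acly, Cyp51, Dhcr7, Srebf2; 7.68%). The Dhcr7 ratios of cluster 7 against cluster 0 were 1.59 (1.00 to 2.55) and 2.43 (1.48 to 4.02).

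Between oligodendrocyte-like and astrocyte-like cells members were called in both directions, as were genes at large. Of 27 over the minimum, 8 were lower in oligodendrocyte-like cells (Soat1, Mvk, Msmo1, Nsdhl, Hsd17b7, Srebf1, Abca1, Apoe; 22.7% of genes) and 4 higher (Hmgcs1, Lss, Ebp, Abcg1; 20.7%). Apoe had ratios of 0.03 and 0.05, Soat1 of 0.06 and 0.04, Abca1 of 0.11 and 0.08 and Msmo1 of 0.32 and 0.33. Abcg1 was 19.6-fold higher in control (9.44 to 49.1) and 6.97-fold in foot shock (2.95 to 21.6), and Hmgcs1 1.58-fold and 2.33-fold. Ebp was at 0 in astrocyte-like cells of foot shock. The median log2 ratio was −0.25 and −0.27 over the members and −0.09 and −0.19 over all genes. Under TMM scaling 9 were higher and 6 lower, beside 32.3% and 13.2% of genes; Mvk and Nsdhl were no longer lower, and Acly, Fdps, Insig1, Pmvk and Sc5d joined the higher group.

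Astrocyte-like cells against the habenula neurons pooled gave 11 of 28 members higher (14.3% of genes) and 4 lower (Acly, Pmvk, Abcg1, Stard4; 36.4%). The largest differences were in the transport and sensing genes: Apoe at ratios of 252 and 193, Abca1 at 45.9 and 42.0 and Srebf1 at 11.8 and 11.5. Among enzymes Msmo1 had ratios of 4.33 (3.77 to 4.96) and 4.95 (3.87 to 6.25), Dhcr7 of 4.08 and 3.51 and Nsdhl of 3.00 and 2.54, and Soat1 had 4.41 and 4.10. Mvk, Idi1, Tm7sf2 and Hsd17b7 completed the 11, at 1.59 to 3.52. Medians were 0.56 and 0.49 log2 units over the members and −0.41 and −0.30 over all genes, and TMM scaling gave 12 higher and 3 lower, beside 17% and 31.6% of genes.

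Oligodendrocyte-like cells against the same neurons gave 9 members higher (13% of genes) and 4 lower (Acly, Soat1, Tm7sf2, Stard4; 51.4%). The 9 were Fdps, Lss, Ebp, Sc5d, Dhcr7, Srebf1, Abca1, Abcg1 and Apoe, with ratios of 1.63 to 8.82, and the largest were those of Apoe at 6.91 and 8.82. Apoe lay below its free RNA level of 265 and 223 CPM on both sides of this comparison. Medians were 0.44 and 0.29 over the members and −0.74 and −0.82 over all genes. Under TMM scaling 16 were higher and 2 lower, beside 21.7% and 34.8% of genes.

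Neuron classes differed in these enzymes too. LHb-like neurons stood above MHb-like neurons in both libraries for 16 of the 17 enzymes and below for 0, with no minimum count, beside 49.4% of 16089 genes above and 29% below, and Acly, Soat1 and Abcg1 were the 3 members lower. All 28 passed the minimum, and 11 were called higher (17.8% of genes) and Acly lower (8.6%), with ratios of 0.52 in both libraries. Msmo1 had ratios of 2.74 (2.35 to 3.20) and 3.21 (2.73 to 3.77), Hmgcs1 of 2.52 (2.26 to 2.82) and 2.58 (2.30 to 2.90), Fdft1 of 2.77 and 2.43 and Dhcr7 of 2.20 and 4.17. Insig1 stood at 2.18 and 2.02. Acat2, Idi1, Sqle, Tm7sf2, Nsdhl and Sc5d made up the 11, at 1.52 to 2.98. Medians were 0.52 and 0.66 log2 units over the members against 0.15 and 0.14 over all genes. TMM scaling kept 10 of the 11 (13.7% of genes), without Tm7sf2, and kept Acly lower.

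Thalamus-like neurons stood above LHb-like neurons for 15 of the 17 enzymes and below for 0, beside 26.5% of 15280 genes above and 42.4% below. Of the 28 members 14 were called higher, beside 9.1% of 10717 genes, and 0 lower, beside 11.9%. Hsd17b7 had the largest ratios, 5.85 (4.30 to 7.95) and 3.10 (1.69 to 5.38), and Stard4 had 2.83 and 3.02, Tm7sf2 2.32 (1.30 to 3.96) and 3.04 (1.14 to 7.00), and Mvd 3.35 (1.94 to 5.65) and 1.84 (0.57 to 4.67). Fdft1 stood at 2.18 and 2.17, Hmgcs1 at 2.11 and 1.86, Sqle at 1.83 and 2.27 and Pmvk at 1.68 and 2.42. Idi1, Fdps, Cyp51, Nsdhl, Sc5d and Apoe completed the 14. Apoe, at 23.4 and 22.6 CPM, was below its free RNA level there. Medians were 0.62 and 0.67 over the members and −0.04 and 0.00 over all genes. TMM scaling gave 13 higher, without Cyp51, and Soat1 lower, beside 8.39% and 13% of genes. Median UMIs per cell were 7029.5 in control and 3569 in foot shock in thalamus-like neurons, against 4286 and 3585 in LHb-like neurons, so the depth gap was present in control alone. Committed precursor-like cells and thalamus-like neurons, the highest classes, were each above the other for 6 of the 17 enzymes (beside 29.2% and 46.6% of 12515 genes), with Mvk, Mvd, Idi1, Lss, Msmo1 and Dhcr7 higher in the former and Pmvk, Fdft1, Sqle, Tm7sf2, Hsd17b7 and Sc5d in the latter. Past the fold were 2 of 17 members over the minimum higher in committed precursor-like cells (Acat2, Dhcr7; 18% of genes) and 3 lower (Pmvk, Abcg1, Stard4; 36.1%). Under TMM scaling Idi1 was also higher, and the same 3 were lower, beside 20.4% and 32.4% of genes.

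Within the habenula neurons, the enzymes summed to 1107 and 1038 CPM in LHb-like cluster 21 (led by Ret and Cxcl13), 869 and 857 in cluster 4 (Tmem255a, Peg10), 795 and 953 in cluster 9 (Cacna2d1) and 756 and 781 in cluster 1 (Rasgrf2, Gap43). The MHb-like clusters lay lower without overlap: 492 and 479 in cluster 2 (Cck, Tac1), 450 and 414 in cluster 5 (Nrgn, Nppa), 410 and 408 in cluster 8 (Pam, Ascl4) and 336 and 309 in cluster 3 (Synpr, Slc5a7). Acly was high in MHb-like clusters 5 (346 and 371) and 3 (308 and 347) and lower in cluster 2 (184 and 179). Insig1 singled out MHb-like cluster 8, at 324 (285 to 367) and 345 (302 to 393) against 41.5 to 76.0 in the other 3, and was highest among LHb-like clusters in cluster 9, at 456 and 291. Cells of cluster 9 had a median of 1493 and 1349.5 UMIs and a median mitochondrial share of 12.6% and 17.1%. Those of MHb-like cluster 8 had a median of 3593 and 1916 UMIs. The other MHb-like clusters had 3850 to 5054 in control and 3179.5 to 4397 in foot shock. The part of these in the Insig1 levels was not tested. Pou4f1, required for a habenula neuron name, stood at 1.54 and 1.98 per 10000 UMIs in LHb-like clusters 1 and 9. In clusters 4 and 21 it stood at 7.34 and 6.13.

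The enzymes tended to be high in the same classes. Over 18 points, the 9 classes in each library, the median Pearson correlation of log2(CPM + 10) was 0.64 over the 136 pairs of enzymes, with a range of −0.18 to 0.92. Against the enzymes, the median was 0.71 for Insig1, 0.64 for Stard4, 0.48 for Srebf2 and 0.46 for Srebf1, and 0.03 over the 68 pairs of enzyme and transport gene. Ebp at 0.10 and Pmvk at 0.25 had the lowest medians among enzymes. These points share libraries and class totals, so the values describe these samples only.

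Genes of neighbouring pathways, from lists of 12 fatty acid synthesis genes, 16 genes of sterol uptake, turnover and the liver X receptor and 9 of the isoprenoid branch, differed in part along the lineage. Between precursor-like and committed precursor-like cells, where 15.4% of all genes were called higher and 19.5% lower, 2 of 7 fatty acid genes over the minimum were higher and 0 lower: Scd2 (ratios of 2.92 and 2.41) and Acsl3 (4.74 and 3.79). From there to oligodendrocyte-like cells, beside 11.1% of genes higher and 23.1% lower, 4 of 11 were higher, among them Scd1, a desaturase, at 8.18 and 11.1, and 3 lower, among them Acsl3 at 0.17 and 0.22. Of the uptake list, Lrp1, a receptor for Apoe, was lower at both steps, with ratios of 0.17 and 0.16 and then 0.04 and 0.07. In all, 3 of 6 measured uptake genes were higher and 1 lower at the first step, and 1 higher and 2 lower of 9 at the second, the latter close to the shares of all genes. The isoprenoid branch had 1 of 2 higher at the first step, and 1 higher and 1 lower of 6 at the second.

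The comparison of foot shock with control asked whether an acute aversive session goes with other levels of these genes. With 1 library per group there is no test, and a gene is named as past the fold where its ratio in a class was at least 1.5 in either direction with at least 20 UMIs over both libraries. Few members were past it, and their shares did not exceed those of all genes outside MHb-like and microglia-like cells. In oligodendrocyte-like cells 2 of 27 measured members were lower (13.5% of 9116 genes) and 0 higher (5.76%). In committed precursor-like cells 2 of 18 were lower (17%) and 0 higher (13.3%), and in astrocyte-like cells 3 of 24 were lower (21.3%) and 2 higher (13.3%). In LHb-like neurons 0 of 28 were lower (5.3%) or higher (3.45%), and in MHb-like neurons 2 were lower (4.61%) and 1 higher (3.02%). The counts were 2 lower (14.7%) and 1 higher (7.42%) of 23 in thalamus-like neurons, 2 lower (18.9%) and 1 higher (15.4%) of 11 in oligodendrocyte precursor-like cells, and 1 lower (19.3%) and 2 higher (21.2%) of 5 in microglia-like cells; none of the 28 was measured in mural-like cells. The median log2 ratio of the members lay between −0.19 and 0.19 over these 8 classes, and that of all genes between −0.10 and −0.01.

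Insig1 was the member with the most frequent difference. Its level went from 330 to 132 CPM in committed precursor-like cells (96 and 25 UMIs), a ratio of 0.40 (0.25 to 0.62), from 249 to 146 in oligodendrocyte-like cells (590 and 246 UMIs), 0.59 (0.50 to 0.68), and from 197 to 119 in astrocyte-like cells (148 and 25 UMIs), 0.60 (0.38 to 0.93). In oligodendrocyte precursor-like cells the ratio was 0.66 (0.26 to 1.53), an interval that holds 1. The neuron ratios were nearer to 1: 0.79 (0.72 to 0.87) in LHb-like, 0.86 (0.76 to 0.97) in MHb-like and 0.89 (0.67 to 1.17) in thalamus-like neurons. Every one of the 7 classes in which Insig1 was measured was thus below 1, and so was free RNA, at 183 and 137 CPM, a ratio of 0.75 (0.67 to 0.84). Thinned to 1000 UMIs, the share of oligodendrocyte-like cells with an Insig1 UMI was 19.5% in control and 13.6% in foot shock (32.4% and 21.9% unthinned), and in microglia-like cells, which hold little Insig1, 2.80% and 3.92% (4.35% and 5.71%), at median depths of 2067 and 1846 against 1485 and 1383 UMIs.

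Insig1 was also read within clusters. Cluster 12, where Insig1 was highest, held 165 of 1079 oligodendrocyte-like cells in control and 68 of 827 in foot shock. Within clusters the ratios were 0.64 (0.51 to 0.80) in cluster 0, 0.74 (0.54 to 1.02) in cluster 7 and 0.82 (0.62 to 1.07) in cluster 12, all 3 nearer to 1 than the class value, and the intervals of the last 2 hold 1. The part of the cluster shares in the class value was not tested. Among MHb-like clusters the direction was mixed, with 0.59 (0.42 to 0.82) in cluster 5 and 0.76 in cluster 3 but 1.06 in cluster 8 and 1.35 (1.00 to 1.81) in cluster 2. The 4 LHb-like clusters lay between 0.64 and 0.84.

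**Figure D4:**
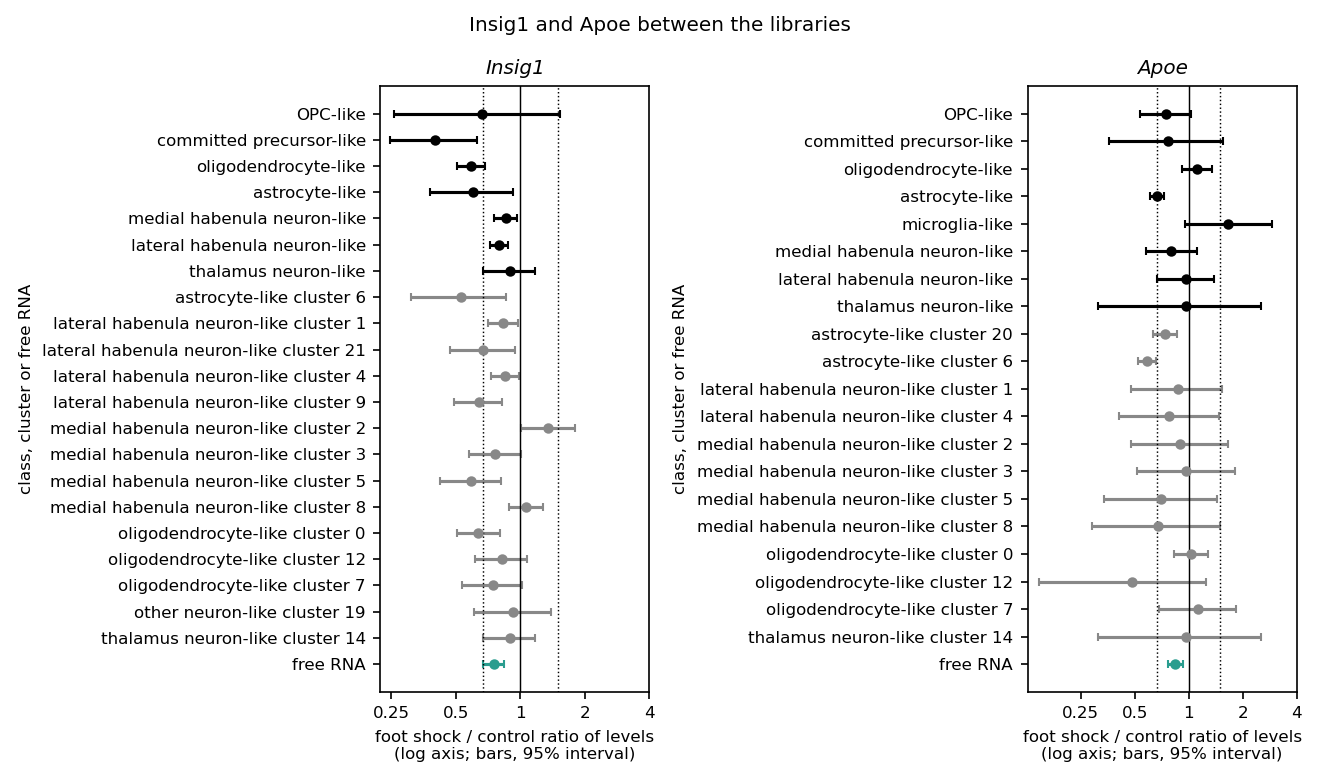
Ratio of foot shock to control level (log axis) of Insig1 and Apoe by class, cluster and free RNA, with exact conditional 95% intervals, 1 library per group; dotted lines mark 1.5-fold. Insig1 lies below 1 in all 7 classes, from 0.40 to 0.89, and Apoe of astrocyte-like cells at 0.67.

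Other members differed in single classes. Apoe in astrocyte-like cells went from 3937 to 2625 CPM, a ratio of 0.67 (0.61 to 0.73) just short of the 1.5-fold line, with 0.59 in cluster 6 and 0.74 in cluster 20 of that class, beside 0.84 in free RNA. Over the 12 astrocyte markers, 14433 CPM in control and 11958 in foot shock were counted in the same class, and the pan-neuron markers there were higher in foot shock, as given above; their part was not tested. Fdps went from 82.6 to 31.6 CPM in committed precursor-like cells, on 24 and 6 UMIs, a ratio of 0.38 (0.13 to 0.96). In MHb-like neurons Lss went from 14.8 to 9.47, a ratio of 0.64 (0.44 to 0.93), and Dhcr7 from 13.2 to 7.69, 0.58 (0.39 to 0.87). Hsd17b7 went from 107 to 60.4 in thalamus-like neurons, 0.57 (0.31 to 0.97). By class, members past the fold with an interval that excludes 1 were 2 of 18 lower in committed precursor-like cells (5.54% of genes) and 1 of 27 in oligodendrocyte-like cells (6.81%). They were 1 of 24 in astrocyte-like cells (4.3%), 2 of 28 in MHb-like neurons (2.23%) and 1 of 23 in thalamus-like neurons (2.83%). They were 0 of 28 in LHb-like neurons (2.61%), 0 of 11 in oligodendrocyte precursor-like (5.37%) and 0 of 5 in microglia-like cells (7.01%). Upward there were 0 in each of these 8 classes, beside 4.51%, 2.53%, 3.49%, 1.38%, 1.95%, 1.74%, 6.52% and 9.65% of genes in the same order. Under this stricter call the lower shares exceeded those of all genes in committed precursor-like, MHb-like and thalamus-like cells, on 1 or 2 members each.

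Intervals of the summed enzymes overlapped between the libraries in each of the 9 classes. The widest gap was in mural-like cells, at 395 (270 to 557) in control and 195 (111 to 317) in foot shock. Intervals did not overlap in endothelial-like cells, outside the 9 with 65 and 46 cells, where the sum was 268 (194 to 361) in control and 543 (414 to 698) in foot shock. Nor did they in MHb-like and LHb-like neurons pooled, at 622 (607 to 638) and 576 (561 to 592), a pool that held 1208 MHb-like of 2387 cells in control and 1619 of 2653 in foot shock. Fdft1 had ratios of 1.04 to 1.32 and Srebf2 of 1.00 to 1.46 over the 7 classes where each was measured, none below 1, while Mvk (0.79 to 0.87), Lss (0.64 to 0.96) and Soat1 (0.47 to 0.90) were below 1 in all 4, 5 and 5 of theirs. Hmgcs1 ranged from 0.72 to 1.41 and Msmo1 from 0.76 to 1.59. Acly was above 1 in 7 of 8 classes, with 1.13 (1.05 to 1.21) in MHb-like neurons, and in free RNA it was 1.29.

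Among the neighbouring lists, committed precursor-like cells had 4 of 9 measured fatty acid genes lower (17% of genes) and 1 higher (13.3%). Elovl6, an elongase, went there from 303 to 126 CPM, a ratio of 0.42, and Fads1, a desaturase, from 151 to 58.0, a ratio of 0.38. In oligodendrocyte-like cells 1 of 11 fatty acid genes (Fads1, 0.61) and 3 of 11 uptake genes were lower (13.5% of genes), among them Vldlr, a lipoprotein receptor, from 153 to 96.4. In astrocyte-like cells Insig2, the sister gene of Insig1, went from 31.9 to 80.7, a ratio of 2.53, and 2 of 10 uptake genes were higher (13.3% of genes) and 2 lower (21.3%). In LHb-like neurons 0 of 12 fatty acid, 14 uptake and 9 isoprenoid genes were past the fold. In MHb-like neurons 2 of 14 uptake genes were higher (3.02% of genes), both with an interval that excludes 1 (1.38%), and 0 lower (4.61%). Of the 11 fatty acid and 9 isoprenoid genes measured there, 0 were past the fold.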

How the data were processed

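The authors used Cell Ranger 2 and the mm10 build, per the submitters' processing notes; the annotation release and strand setting are not given in the sources used here. The deposited tables hold unnormalized UMI counts for 737280 barcodes in each of the 2 libraries, so cells were called here. Of 28692 gene identifiers, 28339 occur in GENCODE vM21 (mm10), used for positions. The members, lists, markers and settings were chosen with earlier results of these data known.

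A cell had at least 1000 UMIs, 500 to 6000 genes and at most 20% mitochondrial UMIs. Scrublet, run in scanpy 1.11.5 at an expected doublet rate of 0.08, removed 4.85% of control and 1.43% of foot shock cells. Both libraries were clustered together (2000 variable genes without the members and related genes, 30 principal components, 15 neighbours, Leiden resolution 1.0 with leidenalg 0.10.2). Naming a cluster took 3 or more markers of a type. A marker counted when 10% of cells held it and its level reached 33.3% of that in the top cluster. Habenula neurons also needed Pou4f1 at 1.0 or more per 10000 UMIs. LHb-like clusters 1 (505 and 410 cells) and 9 (308 and 188) passed at 1.54 and 1.98, beside 0.96 in endothelial-like cells. LHb-like clusters 4 and 21 stood at 7.34 and 6.13 and MHb-like clusters at 5.88 to 9.12. Clusters 1 and 9 held 3 and 4 LHb markers, so their name is less certain. Clusters with markers of unrelated types, 18 and 97 cells, were left out. Class sums were scaled to CPM. Intervals (95%, scipy 1.17.1) are exact: Poisson for levels, conditional binomial for ratios and Clopper-Pearson for shares; they cover counting error only. Shares were thinned to 1000 UMIs per cell. The intervals were tested on simulated counts with set ratios for 200 genes; in oligodendrocyte-like cells 195 intervals held the set ratio, and in committed precursor-like cells 188.

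Every member is accounted for. Full values are given for the 3 highest members of a class and for those past 1.5-fold with an interval that excludes 1; a member outside this rule was named after its values were seen. Alternatives changed depth, mitochondrial and doublet filters, clustering, free RNA, weighting, scaling, UMI minimum, fold, thinning and motif letters. Totals without Malat1, values within clusters and TMM scaling of the class comparisons outside the lineage were added after seeing the data, as were the higher UMI minimum and fold for LHb-like against MHb-like neurons.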

Additional observations from a re-analysis of the deposited data

How the results depend on the processing

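No paired analysis was possible because each group holds 1 library, and for the same reason no replicate was left out. Under the alternatives 107 values that answer a comparison stayed within the limit set for them and 33 did not; the cause was not tested, other than that a higher UMI minimum or fold leaves fewer genes.

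Members past the fold between foot shock and control numbered 2 in oligodendrocyte-like cells, and 1 at a depth of 500 UMIs, with at least 50 or 100 UMIs, or at a fold of 2. In committed precursor-like cells they numbered 2, and 5 at a depth of 500 or 1500 UMIs, 4 without doublet removal, 6 with each cell weighted equally and 1 with at least 50 or 100 UMIs. In astrocyte-like cells they numbered 5, and 9 with a mitochondrial share of at most 10% and 1 with at least 50 or 100 UMIs or at a fold of 2. The 3 in MHb-like neurons became 0 at a fold of 2. The 0 in LHb-like neurons became 1 at 1500 UMIs, with free RNA subtracted or under TMM scaling, and 2 at resolution 2.0. For these alternatives the number of members measured and the share of all genes past the fold are not given. The counts therefore cannot be set against genes at large. Insig1 ratios stayed below 1 in each setting, from 0.54 to 0.69 in oligodendrocyte-like, 0.37 to 0.45 in committed precursor-like, 0.46 to 0.60 in astrocyte-like, 0.67 to 0.87 in LHb-like and 0.81 to 0.97 in MHb-like cells. The Apoe ratio of astrocyte-like cells ranged from 0.52 with a mitochondrial share of at most 10% to 0.75 with each cell weighted equally, and so crossed the 1.5-fold line.

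The 7 members higher in committed precursor-like than precursor-like cells became 2 with at least 50 and 1 with at least 100 UMIs. The 12 lower in oligodendrocyte-like than committed precursor-like cells became 6 under TMM scaling, 3 with at least 100 UMIs and 7 at a fold of 2. The 11 higher in LHb-like than MHb-like neurons became 7 at a fold of 2. Shares of all genes at a higher UMI minimum or fold are not given, so those counts cannot be set against genes at large. TMM scaling turned the sign of the members' median log2 ratio in 3 places: from −0.25 to 0.13 in control and −0.27 to 0.28 in foot shock for oligodendrocyte-like against astrocyte-like cells, where 9 members in place of 4 were higher, and from −0.03 to 0.90 in foot shock for oligodendrocyte-like against precursor-like cells, where 13 in place of 4 were higher and 0 in place of 4 lower. The all-gene medians moved as well, to 0.29 and 0.36 in the first of these comparisons, where the members stayed below them. In foot shock of the second the all-gene median moved to 0.34, and that of the members stayed above it. Under TMM scaling 6 in place of 1 were higher in oligodendrocyte-like than committed precursor-like cells. Against habenula neurons, oligodendrocyte-like cells had 16 in place of 9 higher and 2 in place of 4 lower. In thalamus-like against LHb-like neurons 1 in place of 0 was lower. With looser letters the sterol element was in 2 member promoters in place of 1. At a depth of 1500 UMIs the astrocyte-like and oligodendrocyte precursor-like classes could not be named, so their values were not computed there.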
